A study of Mus musculus with 12 samples.

Results

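Untreated wild-type myofibroblasts from the mouse colon were profiled on 3 bead arrays, 1 for each of the lines WT5, WT7 and WT13. A gene was counted as part of their baseline transcriptome when its probe had a detection p-value under 0.05 on all 3 arrays, and each gene symbol was represented by its brightest such probe. This rule kept 9640 of the 19057 genes that had a probe of a single symbol. The study hybridised 12 Illumina arrays, in 4 groups of 3, from 6 lines of intestinal subepithelial myofibroblasts (ISEMFs). The other 3 lines, KO4, KO10 and KO15, were null for the microRNA cluster miR-143/145, and every line was also hybridised after exposure to lipopolysaccharide (LPS), a component of the bacterial outer membrane, at 1 ug/mL for 24 h. All groups were cultured in DMEM with 10% serum, insulin and transferrin at 10 ug/mL each and murine EGF at 2 ng/mL. The labels give neither the strain, age or sex of the mice nor the passage of the cells, and they do not say that each line came from a separate animal. The p-values of the group comparisons below are therefore measured against the spread of these particular lines, which can include technical variation. Where a test fits each line as a term, they are measured against the disagreement between the 2 arrays of a line beyond the LPS change. With 3 arrays the precision of every level is limited.

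Subepithelial myofibroblasts lie directly beneath the intestinal epithelium. They carry smooth muscle actin and other parts of the contractile apparatus, lay down the basement membrane and interstitial matrix, and secrete growth factors, Wnt and BMP modulators and prostaglandins that act on the epithelium. In culture with serum, fibroblasts take on features of the myofibroblast, so a cultured line shows cells in that medium and not the tissue.

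Levels are log2 intensities after background correction and quantile normalisation, given in the order WT5, WT7 and WT13. Over the 9640 genes the median level was 8.36 and the lowest decile ended at 5.62. Ranks order the probes by signal. Because probes of different genes bind their targets with different strength, a rank does not order transcripts by amount. The 3 arrays detected 19223 to 19283 probes each, and their genes correlated pairwise at 0.994 to 0.995. At the threshold itself, the largest detection p-value of Hoxa10, Macc1 and Mill2 was 0.0491, while that of Aldoc, Col17a1 and 1700016D06Rik was 0.0502, which left those 3 genes out. In bulk RNA, fewer cells of a type and less RNA per cell cannot be told apart.

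The 4 myofibroblast markers were detected on all 3 arrays. Acta2, the smooth muscle alpha-actin gene, had the second highest level of all detected genes, at 15.23, 15.28 and 15.21 with an SD between lines of 0.04. Its unnormalised signals were 42616, 41684 and 40096 intensity units. Actg2, which encodes the enteric smooth muscle gamma-actin, ranked 31 at 14.74, 14.63 and 14.61. Tagln, the actin-binding protein transgelin, ranked 418 at 12.35, 12.49 and 12.60. Myh11, the smooth muscle myosin heavy chain, ranked 1855 at 10.66, 10.54 and 10.25, with an SD of 0.21. Thus both actins lay among the 100 brightest genes, whereas the myosin heavy chain lay at percentile 80.8. The 3 lines stood close together for Acta2, in a range where quantile normalisation draws the brightest probes of each array to the same values. For Myh11 the SD was well above the median SD of 0.073 in its decile of level. WT13 was the lowest for Acta2, Actg2 and Myh11 but the highest for Tagln.

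Of 25 smooth muscle contractile genes with a probe, 23 were detected on all 3 arrays. Their median level was 11.27, at percentile 88.3 of all detected genes, and 11 lay in the top decile. Tpm1, which encodes the tropomyosin that runs along actin filaments, ranked 10 at 14.96, 15.06 and 14.93. Mylk, the kinase that phosphorylates myosin light chain to start contraction, ranked 66 at 14.17, 14.26 and 13.84. Csrp1, Myl9 and Actn1, for a LIM protein of smooth muscle, the regulatory myosin light chain and alpha-actinin, lay between 13.87 and 14.08 on every array. The list was not uniformly bright. Cnn1, which encodes calponin and was named after its values were seen, ranked 9458 at 5.23, 5.20 and 5.01. Myocd, the serum response factor coactivator myocardin, also named after its values were seen, ranked 9413 at 5.02, 5.31 and 5.19. Synpo2 was detected on 1 array and Ppp1r12b on none. Des, the muscle intermediate filament desmin, was the only member of the list with a range between lines above 1, at 10.45, 11.55 and 10.86, and it is taken up again with the line differences.

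**Figure D1:**
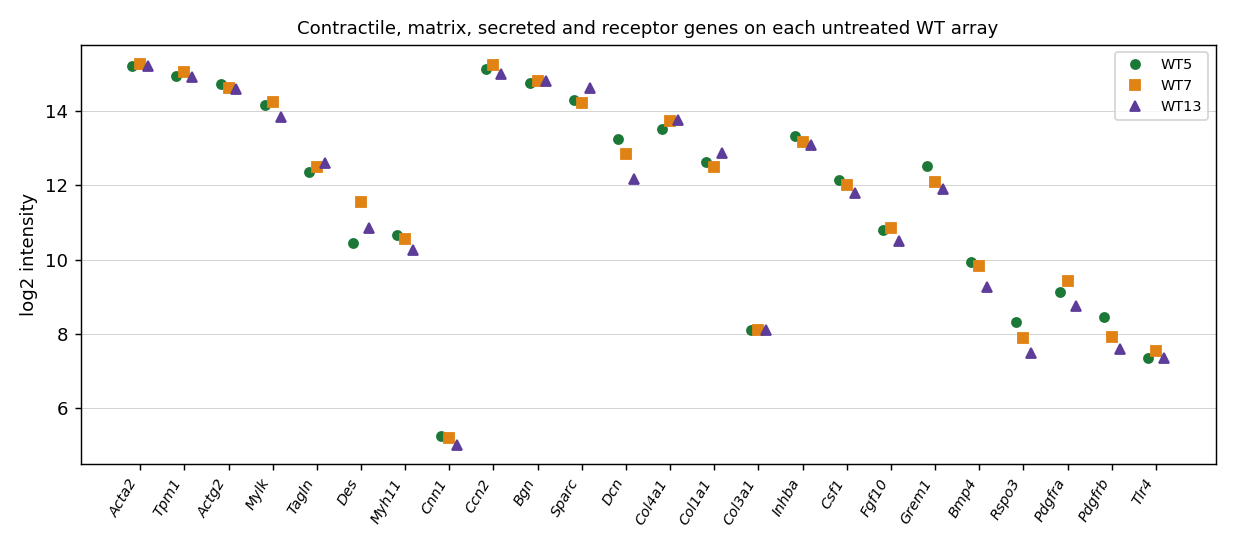
Log2 intensity (y axis) of selected contractile, matrix, secreted and receptor genes (x axis) on the untreated arrays of WT5, WT7 and WT13, 1 symbol per line. Acta2 lay at 15.21 to 15.28 in the 3 lines, Myh11 at 10.25 to 10.66, and Dcn ran from 12.17 in WT13 to 13.26 in WT5.

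Smooth muscle genes are known targets of serum response factor, the product of Srf, which binds a short element called the CArG box. The windows from 250 bases before to 50 bases after the annotated start of Acta2, Myl9, Vcl and Srf are shown as examples of the promoters of detected contractile genes in which a script found this element. Cnn2, with 1 exact box, and Synm, with 1 box that has a replaced letter, also held it and are not printed. They are RefSeq sequences of build GRCm38.p6, written 5′ to 3′ on the strand of the gene, and capitals mark CArG boxes, including those with 1 letter of the 6-letter A/T core replaced by C or G. Acta2 lies on the minus strand at chr19:34255324-34255623, Myl9 on the plus strand at chr2:156775214-156775513, Vcl on the plus strand at chr14:20929148-20929447 and Srf on the minus strand at chr17:46556113-46556412.
Acta2: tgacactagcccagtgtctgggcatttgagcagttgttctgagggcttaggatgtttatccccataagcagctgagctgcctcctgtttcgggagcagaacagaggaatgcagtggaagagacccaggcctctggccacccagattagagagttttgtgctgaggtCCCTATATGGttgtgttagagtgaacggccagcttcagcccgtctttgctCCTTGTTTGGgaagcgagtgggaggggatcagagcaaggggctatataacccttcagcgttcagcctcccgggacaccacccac
Myl9: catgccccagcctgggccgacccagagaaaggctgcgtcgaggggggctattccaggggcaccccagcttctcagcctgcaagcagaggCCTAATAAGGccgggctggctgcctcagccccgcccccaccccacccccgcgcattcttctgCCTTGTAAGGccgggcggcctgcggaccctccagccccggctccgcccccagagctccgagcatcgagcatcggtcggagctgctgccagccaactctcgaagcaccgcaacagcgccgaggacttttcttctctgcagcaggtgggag
Vcl: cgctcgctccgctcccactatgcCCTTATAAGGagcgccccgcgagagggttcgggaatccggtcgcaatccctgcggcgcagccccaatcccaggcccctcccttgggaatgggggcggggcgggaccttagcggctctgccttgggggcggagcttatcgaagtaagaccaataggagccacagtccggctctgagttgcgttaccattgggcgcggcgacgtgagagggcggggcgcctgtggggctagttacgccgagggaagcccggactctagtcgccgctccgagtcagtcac
Srf: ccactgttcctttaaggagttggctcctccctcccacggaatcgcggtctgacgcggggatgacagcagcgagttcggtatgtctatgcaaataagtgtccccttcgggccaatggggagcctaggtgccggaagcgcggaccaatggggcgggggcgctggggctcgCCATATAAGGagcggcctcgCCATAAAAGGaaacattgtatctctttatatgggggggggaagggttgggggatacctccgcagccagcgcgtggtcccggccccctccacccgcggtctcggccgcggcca
The Acta2 window held no exact box and 2 boxes with 1 replaced letter, which began 84 and 34 bases before the start. The Myl9 window held an exact box 161 bases and a replaced one 99 bases before the start. The Vcl box began 227 bases and the Srf boxes 82 and 62 bases before the start. The box reads the same way on both strands. It occurred exactly in 4 of the 20 contractile genes with a window in the promoter table (20%), in 138 of 7846 detected genes (1.76%) and in 488 of all 27025 genes (1.81%). With 1 replaced letter allowed, the counts were 6 of 20 (30%), 845 of 7846 (10.8%) and 3050 of 27025 (11.3%). These matches describe letters in a window and not binding. Tagln, Actg2 and Myh11 had no entry in the table. The levels of the genes shown, apart from those given above, were 13.16, 13.19 and 12.89 for Vcl, which encodes the adhesion protein vinculin, and between 10.83 and 11.08 for Srf, both named after their values were seen.

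Genes of fibroblast and stromal identity had a median of 12.58, at percentile 96.1. With the mean over the detected probes of a gene, their median percentile was 91.0, the same as that of the contractile list. On all 3 arrays 21 of 24 with a probe were detected, and 12 lay in the top decile. Serpinh1, the collagen chaperone HSP47, ranked 15 at 14.90, 14.87 and 14.97. Vim, the intermediate filament vimentin, ranked 70 at 14.04, 13.95 and 14.11. Lgals1 and Anxa2, for galectin-1 and annexin A2, lay between 14.68 and 14.84 on every array. The platelet-derived growth factor receptors stood lower. Pdgfra ranked 3710 at 9.12, 9.43 and 8.76, and Pdgfrb, which marks pericytes and fibroblasts, ranked 5399 at 8.44, 7.92 and 7.58. Both receptors were lowest in WT13. Fap, Nt5e and Rgs5 were each detected on 1 array.

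Transcription factors of mesenchyme and gut patterning were spread over the whole range of levels. Of 35 with a probe 28 were detected on all 3 arrays, with a median of 8.67 at percentile 54.9. Nkx2-3, a homeobox factor of gut and spleen mesenchyme, ranked 550 at 12.36, 12.13 and 12.03. Egr1, an immediate early gene that serum induces, ranked 389 at 12.41, 12.58 and 12.65. Tead1, the DNA-binding partner of YAP and TAZ, ranked 818 at 11.64, 11.80 and 11.71. Foxf1, a hedgehog-responsive forkhead gene of gut mesenchyme that was named after its values were seen, ranked 4757 at 8.78, 8.47 and 7.94. Foxl1, a marker of subepithelial telocytes, was not detected on any array, and neither were Barx1, Gata4, Tbx20, Hand1 and Gli1. Pitx1 was detected on 1 array.

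The Hox genes, which record position along the body axis, had a median of 6.88 at percentile 28.0, and none lay in the top decile. On all 3 arrays 23 of 38 with a probe were detected. Hoxb7 was the brightest, at 10.60, 10.43 and 10.70, followed by Hoxb2 at 9.44, 9.55 and 9.29 and Hoxd10 at 9.40, 9.39 and 8.85. The posterior genes Hoxa13 and Hoxd13, expressed in the hindgut and named here after their values were seen, were detected at low signal. Hoxa13 read 6.54, 6.29 and 6.19, and Hoxd13 read 5.94, 5.96 and 5.56.

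**Figure D2:**
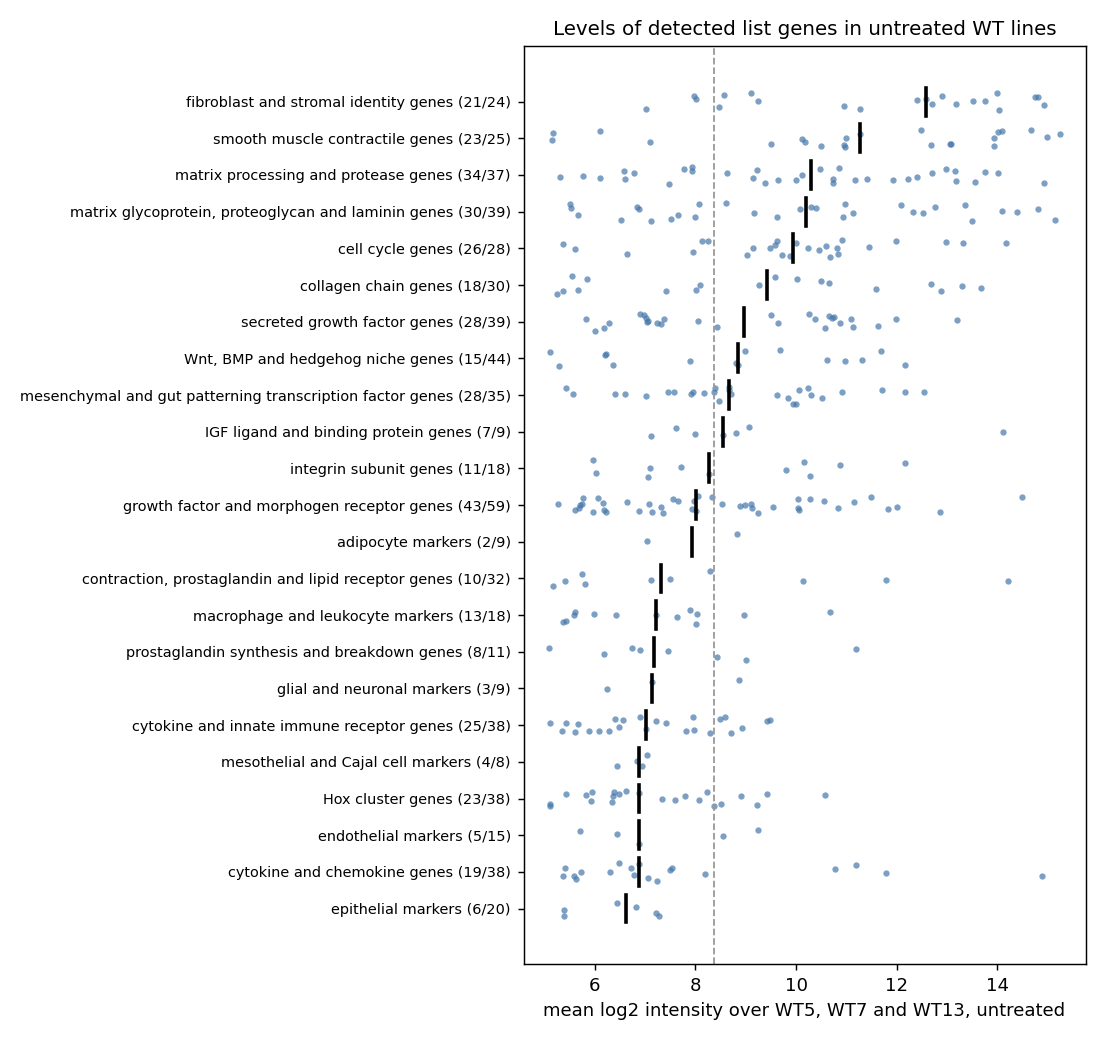
Mean log2 intensity over the 3 untreated WT lines (x axis) of the detected members of each gene list (y axis), with the number detected and the number with a probe in brackets. Stromal identity genes had a median of 12.58 and contractile genes 11.27, against 8.36 over all detected genes, while Hox and cytokine genes had medians of 6.88 and 6.87.

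Some chains of basement membrane and of fibrillar collagens were among the brightest genes. Of 30 collagen chain genes with a probe 18 were detected on all 3 arrays, at a median of 9.42 or percentile 66.3. Of these 18, 5 lay in the top decile and 8 below the median of all detected genes. Col4a1, a chain of the basement membrane network, was the brightest at 13.52, 13.75 and 13.77. Its partner Col4a2 read 13.31, 13.34 and 13.23. The fibrillar chain Col1a1 ranked 336 at 12.64, 12.51 and 12.88, and Col5a1, which helps to start fibrils, ranked 285 at 12.85, 12.96 and 12.86. Col3a1, the other main fibrillar chain of gut connective tissue, was named after its values were seen and read 8.10 in each line. The type VI chain Col6a1 read 9.90, 10.13 and 10.0. The widest range in the list was 0.86, in Col18a1, the precursor of endostatin, which read 9.35, 9.64 and 8.78.

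Among 39 matrix glycoprotein, proteoglycan and laminin genes with a probe, 30 were detected on all 3 arrays at a median of 10.19, percentile 77.0, and 10 lay in the top decile. Ccn2, the connective tissue growth factor gene, ranked 7 at 15.14, 15.25 and 15.01. Bgn, the small proteoglycan biglycan, ranked 24 at 14.78, 14.81 and 14.83. Sparc, a collagen-binding glycoprotein, ranked 45 at 14.30, 14.22 and 14.63 and was highest in WT13. Fbln2, Tnc and Fn1, which encode fibulin-2, tenascin-C and fibronectin, lay between 13.30 and 14.19. The lines lay farther apart for Dcn, the gene of the proteoglycan decorin. It ranked 317 at 13.26, 12.86 and 12.17 with an SD of 0.55, and WT13 lay 1.09 below WT5. The F test for line differences did not call Dcn (limma, adjusted p = 0.179).

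Genes that process matrix were detected at a similar level, 34 of 37 with a probe at a median of 10.30, percentile 78.3. After Serpinh1 the brightest were Timp1, a metalloproteinase inhibitor, at 14.06, 14.01 and 13.96, and P4hb, a subunit of collagen prolyl hydroxylase, at 13.74, 13.78 and 13.76. Mmp14, the membrane-type metalloproteinase, read 13.55, 13.53 and 13.59. The 4 genes differed by no more than 0.10 between any pair of lines. The stromelysin gene Mmp3 lay low and apart between lines, at 6.37, 7.17 and 6.22.

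Secreted growth factors had a median of 8.97, percentile 59.4, and 28 of 39 with a probe were detected on all 3 arrays. Inhba, which encodes the activin A subunit, ranked 198 at 13.34, 13.17 and 13.09. Csf1, the macrophage colony-stimulating factor, ranked 646 at 12.14, 12.01 and 11.81. Pdgfa, the platelet-derived growth factor A chain, read 11.53, 11.73 and 11.62. The neurotrophin gene Bdnf read 11.16, 11.20 and 11.04. Fgf10, a ligand of the epithelial receptor FGFR2, ranked 1609 at 10.80, 10.85 and 10.50. In the insulin-like growth factor family 7 of 9 genes with a probe were detected, and Igfbp7, an abundant secreted binding protein of stroma, stood far above the others at 14.11, 14.13 and 14.06. The ligand Igf1 read 9.13, 8.90 and 8.37 and was lowest in WT13.

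Few Wnt, BMP and hedgehog genes of the epithelial niche were detected, 15 of 44 with a probe (34.1%, against 50.6% of all 19057 genes). Their median was 8.84, percentile 57.3. The BMP antagonist Grem1 was the brightest at 12.51, 12.10 and 11.89, with a rank of 555. Dkk3, of the dickkopf family, read 11.93, 11.77 and 11.38. Wnt5a, a Wnt that acts mainly outside the beta-catenin pathway, read 11.27, 11.40 and 11.27. Bmp4, a ligand made by gut mesenchyme, ranked 2908 at 9.94, 9.83 and 9.25. Rspo3, which amplifies Wnt signalling in crypts, ranked 5538 at 8.31, 7.88 and 7.49, and was highest in WT5 and lowest in WT13, as were Grem1, Dkk3 and Bmp4. The 15 detected genes did not share this order. WT5 was highest in 5 of them and lowest in 5, and WT13 was lowest in 8 and highest in 4. The F test for line differences called 0 of them. Rspo1, Rspo2 and Wnt2b were not detected on all 3 arrays.

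Cytokines and chemokines had a low median of 6.87, percentile 27.8, and 19 of 38 with a probe were detected. The cytokine Mif ranked 20 at 14.86, 14.91 and 14.88. Cxcl12, the stromal ligand of CXCR4, read 12.02, 11.93 and 11.40. Tnfrsf11b, whose product osteoprotegerin is a decoy receptor, read 11.56, 11.19 and 10.82, and the monocyte chemokine Ccl7 read 10.38, 11.16 and 10.76. The chemokines Cxcl1 and Ccl2 differed widely between lines, and their means over the lines lay below the median of all detected genes. Cxcl1, a neutrophil chemokine, read 7.58, 8.88 and 8.08, and Ccl2, a monocyte chemokine, read 7.13, 8.12 and 7.32. Both were highest in WT7. In this list 52.6% of the detected genes had a range between lines of at least 0.5, against 8.46% of all detected genes, and the spread of low signals is given below.

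Growth factor receptors covered a wide range of levels. Of 59 growth factor and morphogen receptor genes with a probe 43 were detected on all 3 arrays, at a median level on percentile 44.3. Axl, the receptor for Gas6, ranked 38 at 14.42, 14.55 and 14.50. Tgfbr2, the type II receptor for TGF-beta, read 11.80, 11.88 and 11.80, and Egfr, the receptor for the EGF in the medium, read 11.50, 11.53 and 11.40. Among 32 receptors of contraction, prostaglandin and lipid signals, 10 were detected. F2r, the thrombin receptor PAR1, ranked 53 at 14.11, 14.30 and 14.22, and S1pr2, a sphingosine-1-phosphate receptor, read 11.79, 11.82 and 11.73.

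Of 38 cytokine and innate immune receptor genes 25 were detected, at a median of 7.01. Osmr, the oncostatin M receptor, was the brightest at 9.31, 9.58 and 9.58. Components of the LPS receptor were detected. Ly96, which encodes the LPS-binding subunit MD-2, read 9.33, 9.55 and 9.38, Tlr4, named after its values were seen, read 7.36, 7.54 and 7.36, and Cd14 read 7.51, 6.81 and 7.32. In prostaglandin synthesis 8 of 11 genes were detected. The prostacyclin synthase Ptgis read 11.03, 11.26 and 11.30 and the inducible cyclooxygenase Ptgs2 read 8.36, 8.73 and 8.19. Of 18 integrin genes 11 were detected, and Itga5, a subunit of the fibronectin receptor, was the brightest at 12.13, 12.24 and 12.10. The collagen-binding subunit Itga11 read 10.56, 10.35 and 9.91. Cell cycle genes, of which 26 of 28 were detected, had a median of 9.94, and Ccnd1, for cyclin D1, ranked 57 at 14.15, 14.21 and 14.17. None of them had a range between lines of 0.5 or more.

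Markers of other cell types were detected in part, where the same rule kept 50.6% of all 19057 genes. The share was 72.2% for macrophage and leukocyte markers and 50% for mesothelial and Cajal cell markers. For epithelial, endothelial, glial and adipocyte markers it was 22.2% to 33.3%. Epithelial markers were detected for 6 of 20, and Epcam, Vil1, Muc2 and Lgr5 were not detected on any array. Endothelial markers were detected for 5 of 15, without Pecam1, Cdh5 and Vwf. Macrophage and leukocyte markers were detected for 13 of 18, at a median of 7.21, percentile 32.5, although Ptprc, Itgam and Itgax were not detected on any array and Adgre1 was detected on 1. Lyz2, the lysozyme of myeloid cells, was the brightest of them at 11.05, 10.36 and 10.61. All 13 were highest in WT5, against 3076 of the 9640 detected genes, and 11 were lowest in WT7. Their medians were 7.51 in WT5, 6.81 in WT7 and 7.32 in WT13, and their summed unnormalised signals were 5700, 4126 and 4351. The share of other cells in the lines was not tested.

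The remaining lists of other cell types were small, and their members did not share an order of the lines. Of 9 glial and neuronal genes 3 were detected, and Gfap, S100b and Erbb3 were not. Ngfr, the nerve growth factor receptor of glia and some stroma, read 7.24, 7.77 and 6.38, and Sox10, a neural crest factor, read 6.52, 6.77 and 5.45. The uroplakin genes Upk1b and Upk3b, in the list of mesothelial and Cajal cell markers, read 7.14, 8.22 and 5.78, and 7.04, 7.99 and 5.79. The keratin Krt8 of simple epithelia and mesothelium read 7.75, 7.96 and 6.11. Each of these genes was highest in WT7 and lowest in WT13, but other members of their lists were not. WT13 was lowest for 2 and highest for 1 of the 3 detected glial genes, lowest for 2 and highest for 2 of the 4 mesothelial and Cajal cell genes, and lowest for 2 and highest for 3 of the 6 epithelial genes. Krt20 and Krt19, also keratins, read 6.73, 6.80 and 6.94, and 6.39, 6.43 and 6.48, highest in WT13. Msln was detected on 1 array, and Kit and Ano1 on none. Adipocyte markers were detected for 2 of 9, without Adipoq, Fabp4 and Plin1.

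**Figure D3:**
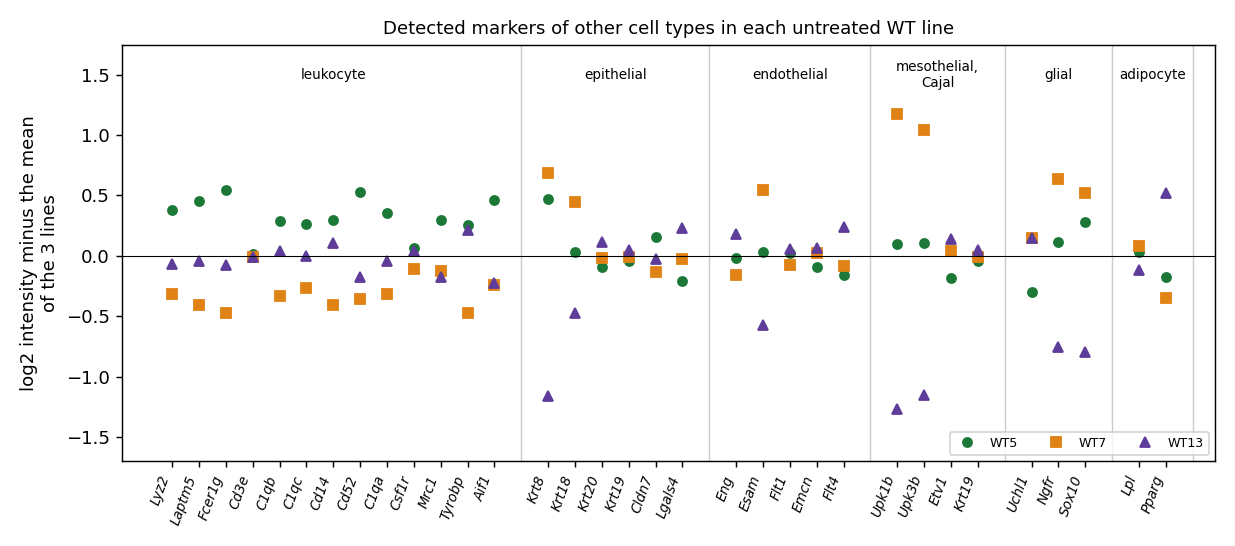
Log2 intensity minus the mean of the 3 lines (y axis) for detected markers of other cell types (x axis, grouped by list) in untreated WT5, WT7 and WT13. All 13 macrophage and leukocyte markers lay highest in WT5, while WT13 was lowest for 2 of 3 glial, 2 of 4 mesothelial and Cajal cell and 2 of 6 epithelial markers and highest for 1, 2 and 3 of them.

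The 3 lines also differed in sex-linked transcripts, none of which was detected on all 3 arrays. Unnormalised Xist signals, from the RNA that coats the inactive X chromosome, were 904, 1025 and 106 in WT5, WT7 and WT13, and those of the Y-linked Eif2s3y were 109, 104 and 435. Thus WT13 stood apart from the other lines in both.

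The spread between the 3 lines was small for most genes and depended on the level. The median SD was 0.10 over all 9640 genes, 0.16 in the lowest decile by level and 0.066 in the highest. The SD exceeded 0.5 in 77 genes (0.799%) and 1 in 9 genes. In the null lines without LPS the median SD was 0.11 and 167 genes exceeded 0.5. In the WT lines with LPS these values were 0.17 and 268. The LPS array of WT13 had the highest median unnormalised signal of all arrays, 136.1, followed by that of KO4 at 127.9. It also detected the most probes, 20249. Its mean correlation with its own group was the lowest, at 0.986, against 0.991 for the LPS array of WT5 and 0.989 for that of WT7. The part of this array in the wider spread with LPS was not tested. Between pairs of lines, 46 genes differed at least 2-fold between WT13 and WT5, 19 between WT13 and WT7 and 17 between WT7 and WT5. The 20 brightest genes held 5.76%, 5.56% and 5.88% of the summed signal of the detected genes. These 20 included 6 genes of ribosomal proteins (Rplp1, Rps2, Rpl41, Rps12, Rpl38 and Rps29), the elongation factor Eef1a1, the cytoskeletal genes Actb, Tuba1b and Tubb5, and, from the lists above, Acta2, Ccn2, Tpm1, Serpinh1 and Mif.

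**Figure D4:**
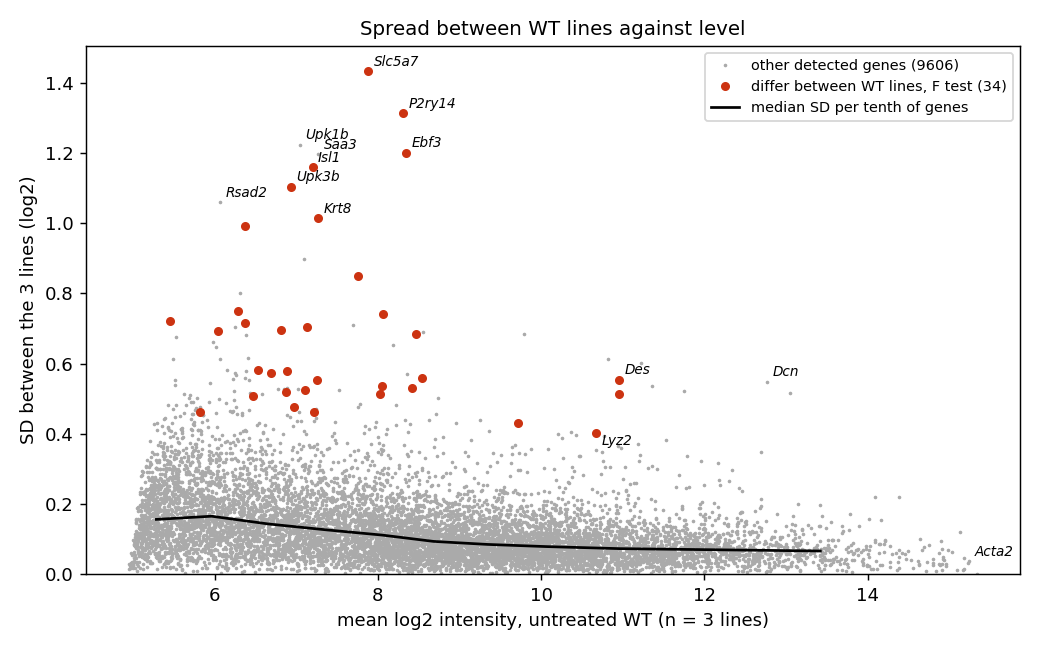
SD between the 3 untreated WT lines (y axis, log2) against the mean log2 intensity (x axis) for 9640 detected genes, with the median SD per decile of level as a line and the genes called by the F test in colour. The median SD was 0.16 in the lowest decile and 0.066 in the highest, and 77 genes lay above 0.5.

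Each WT line had an untreated array and an LPS array, so differences between lines could be tested on what both arrays of a line shared beyond the LPS change. Each line held the same position on both slides, A for WT5, B for WT7 and C for WT13. A difference between lines and a difference between positions therefore cannot be told apart. The moderated F test of limma called 41 of 11060 genes tested after Benjamini-Hochberg adjustment (0.371%), and 34 of them were among the 9640. WT13 stood apart in 24 of the 34, higher in 12 and lower in 12, WT5 in 7 and WT7 in 3. The LPS array of WT13, with the highest median signal and the lowest correlation given above, enters this test. In all 24 genes WT13 lay on the same side of the mean of the other 2 lines on the untreated and the LPS arrays. The test selects genes in which the arrays of a line agree, so that agreement follows from the selection and is no separate support. Without WT13 the test called 8 of the 9640 genes and kept 7 of the 34, without WT5 it kept 19 and without WT7 16. In the fit of the WT arrays alone it kept 4. Leaving out the line that stands apart in a gene removes that difference from the test, here and for the genes below. A call lost in that way does not measure the stability of the difference. Of the 34 genes 2 lie on the X chromosome, against 288 of the 9640. No gene of the 9640 lies on the Y, since detection on all 3 arrays was required. The part of sex in these differences was not tested.

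P2ry14, the receptor for UDP-glucose, was called in the main fit and in all 8 alternatives. Its untreated levels were 9.49, 8.53 and 6.90 and its LPS levels 8.87, 7.82 and 6.48, so the lines kept 1 order on both slides. The difference of WT13 from WT5 was -2.50 ± 0.11 (SE; limma, adjusted p = 6.35e-05, and 0.0240 at most among the alternatives). The null lines read 7.87, 9.49 and 9.60, a range that reached the highest WT line.

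Isl1, Ebf3, Slc5a7 and Prrx1 were called and highest in WT13. Isl1, a LIM homeobox gene, read 6.33, 6.75 and 8.52 without LPS and 6.28, 6.80 and 8.10 with LPS, and WT13 lay 2.00 ± 0.15 above WT5 (limma, adjusted p = 0.00186, called in 7 of 8 alternatives). Ebf3, of the early B-cell factor family, read 7.59, 7.72 and 9.73, with WT13 2.06 ± 0.19 above WT5 (limma, adjusted p = 0.00545, called in 7 of 8). Both calls were lost without WT13, in a fit that leaves only WT7 against WT5, at adjusted p = 0.381 for Isl1 and 0.610 for Ebf3 (limma). The choline transporter gene Slc5a7 had the largest SD of all detected genes, 1.43, at 6.75, 7.40 and 9.49 (limma, adjusted p = 0.0133). Prrx1, a homeobox gene of mesenchyme, read 8.04, 8.11 and 9.26 (limma, adjusted p = 0.0313). Slc5a7 was called in 6 of 8 alternatives, and lost without WT13 (limma, adjusted p = 0.528) and without the LPS array of WT13 (0.139). Prrx1 was called in 3 of 8, and lost without WT13 (limma, adjusted p = 0.882), WT7 (0.0771) or the LPS array of WT13 (0.110), with no filter (0.0758) and with only the arrays compared (0.113). The null lines read 5.73, 4.63 and 6.48 for Isl1, all below WT13.

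Among the genes lower in WT13, Krt8, Upk3b and Esam, an endothelial junction gene, each had an adjusted p of 0.0133 by limma, and Krt18, the partner of Krt8, had 0.0207 and Ngfr 0.0335. These 5 calls were lost without WT13, at adjusted p = 0.0676 to 0.626 by limma, and without WT7, at 0.0541 to 0.243. With only the arrays compared they were lost as well, at adjusted p = 0.0593 to 0.143 (limma). Krt18 and Ngfr were also lost without the LPS array of WT13 (limma, adjusted p = 0.110 and 0.226), and Ngfr with no filter (0.0989). Upk1b was not called (limma, adjusted p = 0.0540). Esam read 8.57, 9.09 and 7.97. Des was highest in WT7 on both arrays of that line, at 11.22 with LPS against 10.11 in WT5 and 10.16 in WT13 (limma, adjusted p = 0.0190, called in 5 of 8 alternatives, with 0.0647 without WT5, 0.521 without WT7 and 0.113 with only the arrays compared). Slpi, a secreted protease inhibitor, was lowest in WT5 at 6.83, against 8.51 in WT7 and 7.91 in WT13 (limma, adjusted p = 0.0133). Fcer1g, a signalling chain of myeloid receptors, was highest in WT5 at 8.58, against 7.56 and 7.96 (limma, adjusted p = 0.0293). The calls of Slpi and Fcer1g were lost without WT5, at adjusted p = 0.114 and 0.482, and without WT7, at 0.170 and 0.0920 (limma). Both were also lost with only the arrays compared, at adjusted p = 0.0882 and 0.155 (limma).

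A wide spread on the untreated arrays did not always return on the LPS arrays. Among the 77 genes with an SD above 0.5, the same line was highest on both in 56 (72.7%), and all 3 lines kept their order in 42 (54.5%), against 36.5% and 19.2% of all detected genes. The inflammatory gene Saa3, an acute phase protein, read 6.01, 8.39 and 7.42 without LPS and 12.89, 13.01 and 13.12 with it, and the F test did not call it (limma, adjusted p = 0.524). Of the 15 genes with the largest SD, 10 were called. The interferon-induced genes Rsad2, Ifi27l2a and Cxcl10 were among those not called. Each was highest in WT5, at 7.27, 8.05 and 7.13, and lowest in WT13, at 5.29, 6.27 and 5.53.

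**Figure D5:**
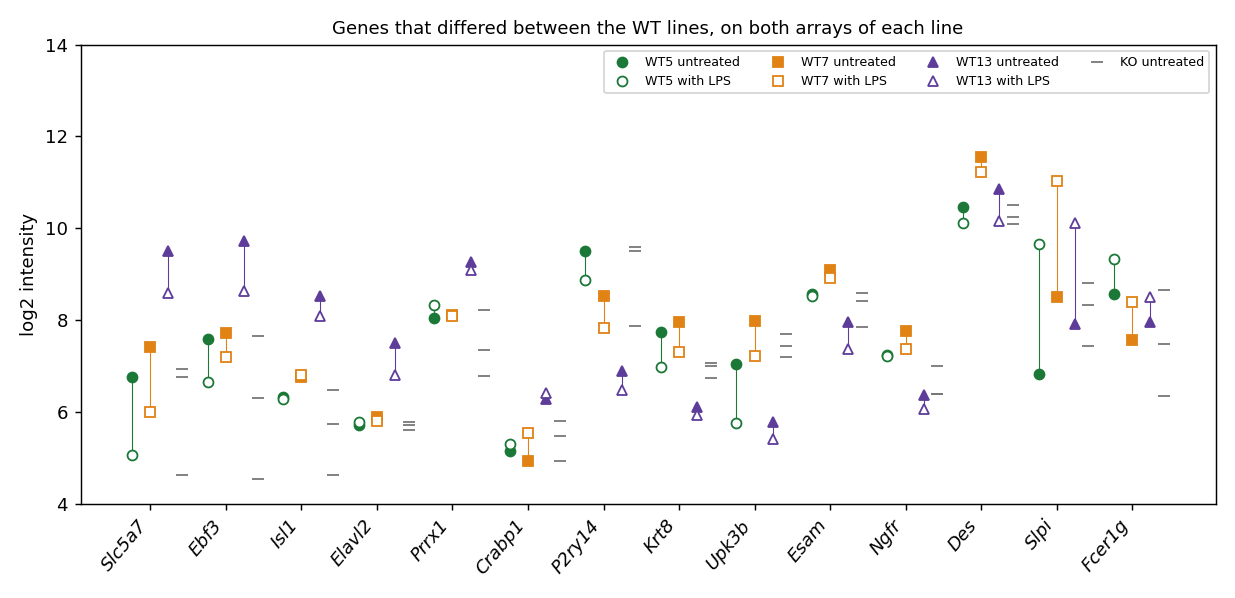
Log2 intensity (y axis) of genes that differed between WT lines (x axis), with filled symbols for untreated and open symbols for LPS arrays of WT5, WT7 and WT13, and dashes for the 3 untreated null lines. P2ry14 was highest in WT5 at 9.49 and lowest in WT13 at 6.90, and Isl1 read 6.33 in WT5 and 8.52 in WT13, in the same order on the LPS arrays.

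The baseline was then set against the null lines on the same slide, which addresses where the WT lines differ from cells without miR-143/145. Few baseline genes differed. With limma's test on group means 20 of 11060 genes were called (0.181%), 13 of them higher (0.118%) and 7 lower (0.0633%) in the null lines. Of the 9640 genes 9 were higher and 7 lower. Detection in the WT lines was required for the 9640, so calls missing from them were all higher in the null lines. The number called over all genes was 46 without KO15 and 5 to 11 without any 1 of the other 5 arrays. On the slide the WT lines took positions A to C and the null lines the next ones, D to F. Genotype and position on the slide cannot be told apart. The null lines detected 9729 genes by the same rule, and of the 100 brightest genes of the WT baseline 90 to 93 were among the 100 brightest of each null line.

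Of the genes in the lists, Mdk, the growth factor midkine, read 7.29, 7.33 and 7.52 in the WT lines and 8.64, 8.54 and 8.71 in the null lines. It was higher in the null lines by 1.25 ± 0.10 (SE; limma, adjusted p = 0.000265), with no overlap of the groups. Col24a1 read 5.79, 5.83 and 5.92 against 7.32, 7.63 and 6.96, higher by 1.45 ± 0.16 (limma, adjusted p = 0.00305, and 0.0749 in the fit of the arrays compared alone). Tgfbr2 was higher in the null lines by 0.57 ± 0.09 (limma, adjusted p = 0.0294) and Fgf10 by 0.76 ± 0.12 (adjusted p = 0.0307). Both calls were lost without any 1 of the WT lines, at adjusted p = 0.0930 to 0.123 by limma, and without KO4 or KO10. With only the arrays compared they were lost as well, at adjusted p = 0.100 for Tgfbr2 and 0.117 for Fgf10 (limma). The called list gene that was lower in the null lines was Emcn, an endothelial marker, which read 6.36, 6.47 and 6.52 against 5.78, 5.42 and 5.75, a difference of -0.80 ± 0.13 (limma, adjusted p = 0.0350). Its call was lost without any 1 WT line, at adjusted p = 0.106 to 0.172 by limma, and without KO4 or KO10, at 0.0813 and 0.181. The Emcn call was also lost with the authors' values (limma, adjusted p = 0.0514), with no filter (0.0620) and with only the arrays compared (0.100). Of the 23 contractile genes limma called 0, and 6 were lower and 0 higher at p under 0.05 before adjustment. Over all 11060 genes tested 1008 had such a p-value, in either direction. Acta2 read 15.25, 15.25 and 15.23 in the null lines, and Myh11 read 10.01, 9.94 and 10.11, a difference of -0.47 ± 0.19 that was not called (limma, adjusted p = 0.444).

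The last comparison set the baseline against the same WT lines after LPS. Since the untreated arrays shared a slide and the LPS arrays were all on another, an effect of LPS and an effect of the slide cannot be told apart. The comparison shares the untreated WT arrays with that of the null lines. With limma 2526 of 11060 genes were called in the WT lines (22.8%), 1162 higher (10.5%) and 1364 lower (12.3%) with LPS. Of the 9640 baseline genes 994 were higher and 1346 lower. Genes not detected on all 3 untreated WT arrays are outside the 9640, so the rule removes more of the higher than of the lower calls. With the line as a replicate block, 27.1% of the genes tested were called. The number called over all genes fell to 1666 without the untreated array of WT7 and to 1581 without that of WT13. Of the 100 brightest baseline genes 81 to 84 were among the 100 brightest on each WT array with LPS. The medians of the 13 macrophage and leukocyte markers were 6.81 to 7.51 on the untreated WT arrays, 6.15 to 7.28 in the untreated null lines and 5.99 to 6.55 in the WT lines with LPS, and their part in these comparisons was not tested.

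Contractile genes were lower where they were called. Of 23, limma called 14 lower and 0 higher, at a median change of -0.42, against -0.07 over all detected genes. The share called was 60.9%, against 24.3% of all detected genes in either direction. At p under 0.05 before adjustment 16 were lower and 0 higher, against 4142 of the 11060 genes tested in either direction. The number called was 8 in the fit of the arrays compared alone and 8 and 9 without the untreated array of WT7 or of WT5. Myh11 read 9.30, 9.49 and 8.83 with LPS, a change of -1.28 ± 0.19 (limma, adjusted p = 0.000758, and 0.00462 at most among the alternatives) seen in all 3 lines. Mylk changed by -1.15 ± 0.26 (limma, adjusted p = 0.00937) and Tagln by -0.61 ± 0.15 (adjusted p = 0.0134), the latter lost without the untreated array of WT13 at 0.0547. Acta2 read 15.28, 15.21 and 15.19 with LPS, a change of -0.02 ± 0.08 (limma, adjusted p = 0.896). For Actg2 the change was -0.42 ± 0.15 (adjusted p = 0.0610, and 0.0426 with the line as a replicate block). Quantile normalisation draws the brightest probes of each array to the same values, which limits the change that Acta2 can show.

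Secreted and receptor genes of the baseline moved in both directions. Of 19 cytokine genes 11 were higher and 1 lower with LPS, at a median change of 1.08. The share called was 63.2%, against 24.3% of all detected genes in either direction. Ccl2 read 12.51 in WT7, 12.67 in WT13 and more in WT5, a change of 5.20 ± 0.50 (limma, adjusted p = 6.14e-05), and Cxcl1 changed by 5.16 ± 0.58 (adjusted p = 0.000138). The line order of the low untreated values did not return, since WT7, the highest line for both chemokines without LPS, was the lowest with it. Tgfb3, a TGF-beta ligand, changed by -1.95 ± 0.17 (limma, adjusted p = 4.04e-05). Itga11 changed by -2.05 ± 0.31 (adjusted p = 0.000986). Rspo3 read 9.38, 9.25 and 8.63 with LPS, higher by 1.19 ± 0.23 (limma, adjusted p = 0.00397), and WT5 remained the highest and WT13 the lowest line. Ptgs2 read 9.78, 9.42 and 11.12, higher by 1.68 ± 0.35 (limma, adjusted p = 0.00527).

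Matrix genes were mostly lower where called. Of 18 collagen genes 9 were lower and 1 higher at limma's p under 0.05 before adjustment. Over all 11060 genes tested 4142 had such a p-value, in either direction. After adjustment limma called 7 collagen genes lower and 0 higher (38.9%, against 24.3% of all detected genes in either direction). It called 3 without the untreated array of WT13, 4 without that of WT7 and 4 without the LPS array of WT5. Of 30 other matrix genes 10 were lower and 1 higher (36.7% in either direction, against 24.3% of all detected genes). With the line as a replicate block 18 of them were called, and 27.1% of all genes tested. Col4a2 changed by -0.44 ± 0.08 (limma, adjusted p = 0.00259) and Fn1 by -0.75 ± 0.13 (adjusted p = 0.00234). The matrix proteases Mmp3 and Mmp13 were higher, Mmp3 by 3.65 ± 0.37 (limma, adjusted p = 8.05e-05) and Mmp13 by 3.33 ± 0.53 (adjusted p = 0.00123), whereas Mmp14 changed by -0.65 ± 0.11 (adjusted p = 0.00176). All 3 lines showed the direction for each of these genes.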

How the data were processed

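The first deposited table gives, per the file headers, the average bead intensity of each probe without normalisation, on a linear scale. Beside it stands a deposited detection p-value that sets the probe's signal against the negative controls of its array. A second table holds the authors' processed intensity values, which from the values are quantile normalised and were used as an alternative. The submitters' processing notes name BeadStudio, with no version given in the sources used here. No value column was left unused. Of 45281 probes 34885 had 1 gene symbol, 18 several and 10378 none, by the platform annotation, and RefSeq identifiers (GRCm38.p6) matched 34807 and changed 0 symbols.

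Signals of all 12 arrays were normalised with neqc (limma 3.58.1, R 4.3.3, offset 16), and lists and figures were made with Python 3.11.15, pandas 2.3.3, numpy 2.4.6 and matplotlib 3.10.9. Levels came from each gene's probe of highest unnormalised signal. Tests used lmFit and eBayes with Benjamini-Hochberg adjustment at 0.05 over 11060 genes with a probe detected on at least 3 arrays, each represented by its brightest probe over the 12 arrays, which was another probe for 133 of the 9640 genes. The line test fitted lines and an LPS change per genotype, and the other tests 4 group means. The scripts were tested on simulated data.

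The arrays of a line are paired, since per the labels each line was hybridised in both conditions: their deviations from the group means correlated at 0.197 (WT5), 0.137 (WT7) and 0.150 (WT13). The members and gene lists were chosen with earlier results of these data known. Named genes were the 4 markers, the 20 brightest, the brightest, most variable and undetected members of each list, the 15 of largest SD, the called genes of each line, the called list genes with the largest changes, and the genes at the threshold. Others are marked in the text as named after their values were seen, which also holds for Actn1, Col6a1, Pdgfra, Xist, Eif2s3y and the undetected genes of lists with over 5 undetected members. Alternatives were the authors' values, scaling to the 75th percentile, no filter, only the arrays compared, each replicate left out and the line as a block.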

Additional observations from a re-analysis of the deposited data

How the results depend on the processing

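The number of detected genes, 9640, was 8753 at a detection p under 0.01, 10208 with detection on 2 of 3 arrays, and 9822 to 9846 when 1 array was left out. The percentiles of the 23 gene lists moved by at most 11.1 points, for collagens with the mean over probes. The line test called 41 genes. It called 8 with only the arrays compared, 9 to 27 when 1 WT line was left out, and 25 without the LPS array of WT13, an alternative chosen after seeing the data. KO against WT without LPS called 20 genes, 3 with only the arrays compared and 5 to 46 when 1 array was left out. LPS in WT called 2526 genes, and 1581 to 3020 when 1 array was left out. With the line as a replicate block it called 2992 (27.1% of 11060). With the line as a random replicate block KO against WT called 28. The causes were not tested. At p under 0.05 before adjustment these tests counted 1200, 1008 and 4142 genes. The median SD between lines was 0.16 and 0.17 in the 2 lowest deciles of level, nearest to background, against 0.066 in the highest, so differences at low signal are less precise.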
